A study of Mus musculus with 7 samples.

Results

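The genes around Fpr2 on mouse chromosome 17 were examined in spleen RNA from mice lacking Fpr2 (Fpr2KO, n = 4) and from wild-type mice (WT, n = 3). All genes annotated by GENCODE M21 (GRCm38) that overlap the interval from 7.9 to 27.9 Mb, which reaches 10 Mb to each side of Fpr2, were taken where they had 70 or more reads over the 7 libraries. Symbols beginning with Fpr, Rpl or Rps and the gene Prss34 were left out. The interval held 626 genes of the 55414 in the table. Of these, 13 were left out by name and 395 had fewer than 70 reads, 262 of them none at all, which left 218 genes. They lay unevenly around the targeted gene, with 53 on the centromere side and 165 on the telomere side. The set comprised 186 protein-coding genes, 10 antisense RNAs, 8 processed pseudogenes, 7 lincRNAs, 3 processed transcripts, 3 transcribed processed pseudogenes and 1 miRNA locus. Around the read minimum, AC144621.2 (71 reads), Ntn3 (72) and Gm16046 (73) were just inside, and Pnldc1 (69), Flywch2 (68) and Zbtb9 (64) were just outside. Each library was labelled as polyadenylated RNA of whole spleen. The WT genotype was given as C57BL/6N. The sources used here do not give the strain background, targeting design, age or sex of the Fpr2KO mice.

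The Fpr2 protein is a chemoattractant receptor on neutrophils, monocytes and macrophages. A targeted allele is inherited together with the chromosome around it. For that reason the neighbours of a deleted gene are often inspected in a knockout, both for effects of the deletion on nearby promoters and for DNA of another strain that stayed linked to the allele through breeding. The counts hold no alleles, so the strain of origin of the region was not examined. The region itself is rich in tandem families. It carries the formyl peptide receptors, arrays of vomeronasal receptors (pheromone receptors of the nose) and an array of KRAB-type zinc finger genes, followed towards the telomere by a dense block of housekeeping, signalling and mast cell protease genes.

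Of the 218 genes, the one nearest to Fpr2, Spaca6, hosts the miR-99b, let-7e and miR-125a cluster. Their mature sequences are shown because they are the conserved regulatory products nearest to the deleted gene, between 57.0 and 57.6 kb from it, together with miR-5125, which is encoded within Srrm2 and is the only miRNA locus among the 218 genes. Capitals mark the seed, bases 2 to 8, and the sequences are those of RefSeq for GRCm38.p6, written 5′ to 3′.
mmu-miR-99b-5p: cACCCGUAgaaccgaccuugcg
mmu-let-7e-5p: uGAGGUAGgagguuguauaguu
mmu-miR-125a-5p: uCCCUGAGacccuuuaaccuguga
mmu-miR-5125: uCUGCCUGggauuuccuugu
No seed was shared among these miRNAs. The Mir99b, Mirlet7e and Mir125a loci held 3, 1 and 0 reads over the 7 libraries, and the Mir5125 locus held 459. These libraries were made from polyadenylated RNA, so such reads come from longer transcripts over the locus and are no measure of the mature miRNA.

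Promoters are shown for Neurl1b, Zfp760 and Mmp25, the protein-coding genes with the smallest p of the region, whose expression is given further on. Each is the 250 bases before the annotated start from RefSeq (GRCm38.p6), read 5′ to 3′ on the gene's strand, and capitals mark GC boxes, the letters GGGCGG on either strand. The RefSeq and GENCODE M21 starts differ, and by GENCODE the last bases of the Neurl1b and Mmp25 windows lie inside the gene.
Neurl1b, chr17:26414609-26414858, plus strand: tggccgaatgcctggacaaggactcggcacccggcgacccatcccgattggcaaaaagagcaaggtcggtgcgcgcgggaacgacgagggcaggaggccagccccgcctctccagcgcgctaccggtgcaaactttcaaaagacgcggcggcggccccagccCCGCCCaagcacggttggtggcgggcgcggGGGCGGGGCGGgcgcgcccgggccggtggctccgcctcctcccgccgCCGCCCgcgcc
Zfp760, chr17:21707491-21707740, plus strand: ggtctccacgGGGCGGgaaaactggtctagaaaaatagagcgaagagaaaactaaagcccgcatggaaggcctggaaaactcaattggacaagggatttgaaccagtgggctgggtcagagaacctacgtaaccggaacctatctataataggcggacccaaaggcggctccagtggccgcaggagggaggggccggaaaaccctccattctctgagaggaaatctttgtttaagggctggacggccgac
Mmp25, chr17:23645270-23645519, minus strand: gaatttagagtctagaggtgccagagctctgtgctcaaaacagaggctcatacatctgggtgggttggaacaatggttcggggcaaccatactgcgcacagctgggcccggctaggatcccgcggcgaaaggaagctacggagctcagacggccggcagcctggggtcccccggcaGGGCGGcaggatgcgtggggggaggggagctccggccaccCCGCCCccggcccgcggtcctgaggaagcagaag
The Neurl1b promoter held 4 GC boxes and 36 CpG dinucleotides at 75.2% G and C. The Mmp25 promoter held 2 GC boxes and 17 CpG at 66.0%, and that of Zfp760 held 1 GC box and 12 CpG at 54.0%. Over 32851 promoters of this length, the median was 6 CpG and 52.4% G and C, and 32.7% held a GC box. CCAAT, searched on both strands, occurred once in the Neurl1b and once in the Zfp760 promoter and in 33.8% of all promoters. The letters TATAAA were in none of the 3 windows and in 12.4% of all promoters. These matches describe the letters only.

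The libraries held between 16424799 and 18692809 reads in Fpr2KO and between 14968605 and 16600334 in WT. Fpr2 (ENSMUSG00000052270, chromosome 17, 17887824 to 17893952, plus strand) had 0 reads in all 4 Fpr2KO libraries, against 537, 479 and 477 in WT. It was at least 181-fold lower in Fpr2KO, with 3 reads per library as the floor (exact two-sided permutation p = 0.0286, the smallest that 35 splits allow; edgeR adjusted p = 2.27e-05). B cell, T cell and red pulp macrophage markers were detected in every library. The summed CPM of 10 neutrophil markers was 2680, 1340, 2040 and 1430 in Fpr2KO, against 3340, 4500 and 3750 in WT. Erythroid markers ran from 9960 to 49600 in Fpr2KO and from 14800 to 90300 in WT. Pancreatic acinar markers stood at 943 and 541 in Fpr2KO replicates 1 and 2, at 39.5 and 35.7 in replicates 3 and 4, and between 24 and 49.1 in WT. Adipocyte markers summed to between 10.7 and 16.7 in Fpr2KO and to 19.7, 16.4 and 46.3 in WT, highest in WT replicate 3.

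None of the 218 genes passed the genome-wide test. CPM values are read counts scaled to library size with TMM factors, and a log2 fold change is Fpr2KO minus WT. Over the whole table, edgeR's quasi-likelihood test called 6 of 16089 genes at a Benjamini-Hochberg adjusted p under 0.05 (0.0373%), all of them lower in Fpr2KO, and the smallest adjusted p in the region was 0.479. Without adjustment, 11 of the 218 genes (5.05%) had a p under 0.05, against 4.98% of all genes. Of these, 4 had higher mean levels in Fpr2KO (1.91% of all genes) and 7 had lower ones (3.07% of all genes). The count was 17 (7.8%, against 6.34% of all genes) without WT replicate 3, the library with the highest adipocyte markers. It was 6 (2.75%, against 4.29% of all genes) without WT replicate 2, which had the highest erythroid markers. The part of these markers in the counts was not tested. Fpr2KO and WT libraries did not overlap for 14 genes (6.42%), against 5.91% of all genes. Fpr2KO was the higher in 6 of the 14 (2.73% of all genes) and the lower in 8 (3.18% of all genes). DESeq2, run as an alternative, gave an adjusted p under 0.05 to 1 of the 218, Neurl1b. Among the 16289 genes to which DESeq2 gave an adjusted p, the share was 0.356% (0.0614% higher and 0.295% lower in Fpr2KO).

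The fold changes of the region were centred on 0 and lay close to those of the transcriptome. Their median was 0.003 on the log2 scale, against -0.005 for all genes, with quartiles of -0.11 and 0.10 in the region and -0.12 and 0.10 over all genes. Values were positive for 111 genes (50.9%; 48.6% of all genes) and negative for 107. Changes within 0.2 of 0 on the log2 scale were seen for 162 genes (74.3%; 71.7% of all genes). A single gene, Tpsb2, differed by 2-fold or more, against 1.45% of all genes. Precision was good for most of them, with a median standard error of 0.15 on the log2 scale. The 95% interval lay within a 1.5-fold change either way for 134 genes and within 2-fold for 175. For genes outside those 175 it reached past 2-fold.

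**Figure D1:**
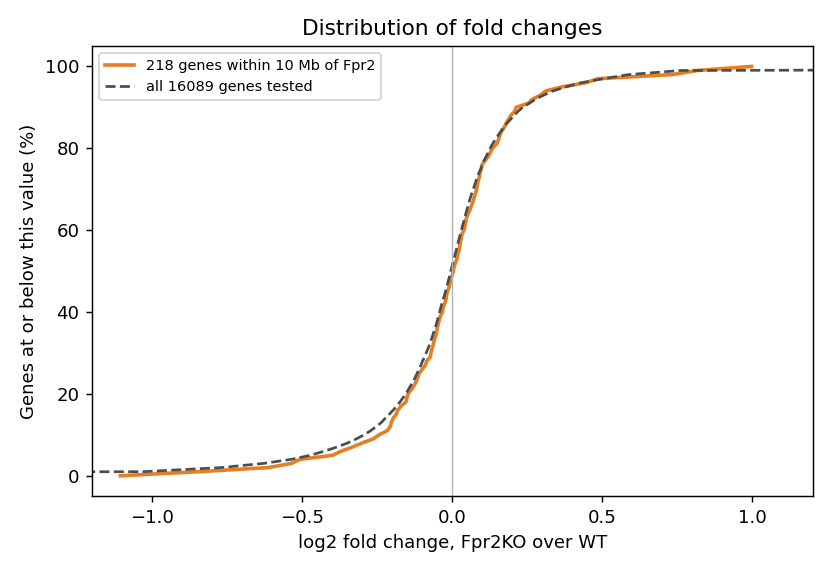
Cumulative distribution of the log2 fold change (Fpr2KO over WT, horizontal axis) for the 218 genes within 10 Mb of Fpr2 (solid line) and for all 16089 genes tested (dashed line), as the percentage of genes at or below each value. The lines run together through medians of 0.003 and -0.005.

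Together the 218 genes took 0.729, 0.721, 0.731 and 0.722% of all reads in the Fpr2KO libraries, against 0.724, 0.699 and 0.674% in the WT libraries. The groups overlapped in this share. Levels ran from 0.598 to 313 CPM with a median of 17.9, and 20 genes averaged under 1 CPM while 17 averaged over 100. Srrm2, a splicing-factor scaffold of nuclear speckles, was the most abundant by CPM, at 311 ± 22.7 in Fpr2KO (SD, n = 4) and 316 ± 54.6 in WT (SD, n = 3). Tcp1, a subunit of the cytosolic chaperonin, followed at 269 ± 21.7 CPM in Fpr2KO and 265 ± 17.9 CPM in WT. Psmb1, a proteasome subunit, had 234 ± 4.49 CPM in Fpr2KO and 227 ± 27.1 CPM in WT. The log2 fold changes of these 3 lay between -0.02 and 0.05, each smaller than its standard error. Per kilobase of exon the order was another one, with the pseudogene Gm8186 at 107 CPM per kb, the selenoprotein methionine sulfoxide reductase Msrb1 at 93.4 and the elongin subunit Elob at 73.1. All 50-base stretches of Gm8186 also occur in the spliceosomal gene Snrpg, so its reads cannot be assigned with certainty.

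Nearest to the deletion, on the centromere side, were 10 genes within 1 Mb. Spaca6, a sperm membrane protein needed for fusion with the egg, lay 44.8 kb from Fpr2. It had 2.94, 2.68, 1.84 and 2.45 CPM in Fpr2KO, against 2.95, 2.95 and 1.17 CPM in WT (log2 fold change 0.08, SE 0.33). The Fpr2KO libraries fell inside the WT range, and this was the closest measured gene outside the receptor family. Lnpep, the insulin-regulated aminopeptidase that trims peptides in endosomes, lay 263 kb away and was far more abundant. It had 206, 275, 206 and 200 CPM in Fpr2KO, against 257, 177 and 197 CPM in WT (log2 fold change 0.08, SE 0.15). The groups overlapped, with replicate 2 the highest of Fpr2KO and replicate 1 the highest of WT. Riok2, a kinase of small ribosomal subunit maturation, had 39.4, 39.4, 42.8 and 36.3 CPM in Fpr2KO, against 33.2, 43.2 and 39.8 CPM in WT. Its log2 fold change was 0.03 with a 95% interval from -0.21 to 0.27, the narrowest of the nearest genes on this side.

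Lix1 had 1.00, 0.858, 1.78 and 0.991 CPM in Fpr2KO, against 1.27, 1.11 and 0.862 CPM in WT (log2 fold change 0.09, SE 0.35). The lincRNA Gm6712 had 4.00, 5.15, 4.62 and 5.27 CPM in Fpr2KO, against 3.49, 4.98 and 4.37 CPM in WT (log2 fold change 0.15, SE 0.19). For both the groups overlapped. Oaz1-ps, a processed pseudogene of the ornithine decarboxylase antizyme gene Oaz1, had 12.1, 7.24, 7.46 and 7.25 CPM in Fpr2KO, against 11.2, 12.3 and 6.77 CPM in WT. Its log2 fold change was -0.24 (SE 0.25), and 92.1% of its 50-base stretches occur in other genes, so the value is uncertain. Farther out within 1 Mb, the lincRNA Gm5165 had 13.4, 14.4, 14.6 and 15.3 CPM in Fpr2KO, against 12.3, 15.7 and 15.2 CPM in WT. For the lincRNA BC002059 the log2 fold change was 0.21 (SE 0.18). For the zinc finger genes Zfp960 and Zfp97 it was -0.20 (SE 0.31) and 0.13 (SE 0.18). The groups overlapped for all of these, and most 50-base stretches of both zinc finger genes occur in other genes.

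Towards the telomere lies the vomeronasal receptor array, which was nearly silent in spleen. Of 74 vomeronasal receptor genes in the interval, 68 had no reads, and all 74 together had 232 reads over the 7 libraries. Vmn2r96, 679 kb from Fpr2, had 0.824, 1.99, 1.60 and 0.626 CPM in Fpr2KO, against 1.88, 0.655 and 1.23 CPM in WT. Vmn2r97, at 1.02 Mb, had 0.648, 0.751, 0.948 and 0.521 CPM in Fpr2KO, against 0.670, 0.459 and 0.492 CPM in WT. Both sets of libraries overlapped, and the 95% interval of the Vmn2r97 log2 fold change ran from -0.44 to 1.24. No gene between 1.02 and 3.05 Mb on this side reached 70 reads. The next was Ppp2r1a, the scaffold subunit of protein phosphatase 2A, with 148, 150, 152 and 170 CPM in Fpr2KO, against 155, 175 and 174 CPM in WT. Its log2 fold change was -0.12 (95% interval -0.31 to 0.08). The zinc finger genes Zfp160, Zfp677 and Zfp54 followed, at log2 fold changes of 0.09, -0.15 and 0.26 with standard errors of 0.11, 0.14 and 0.23, and the groups overlapped for each.

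**Figure D2:**
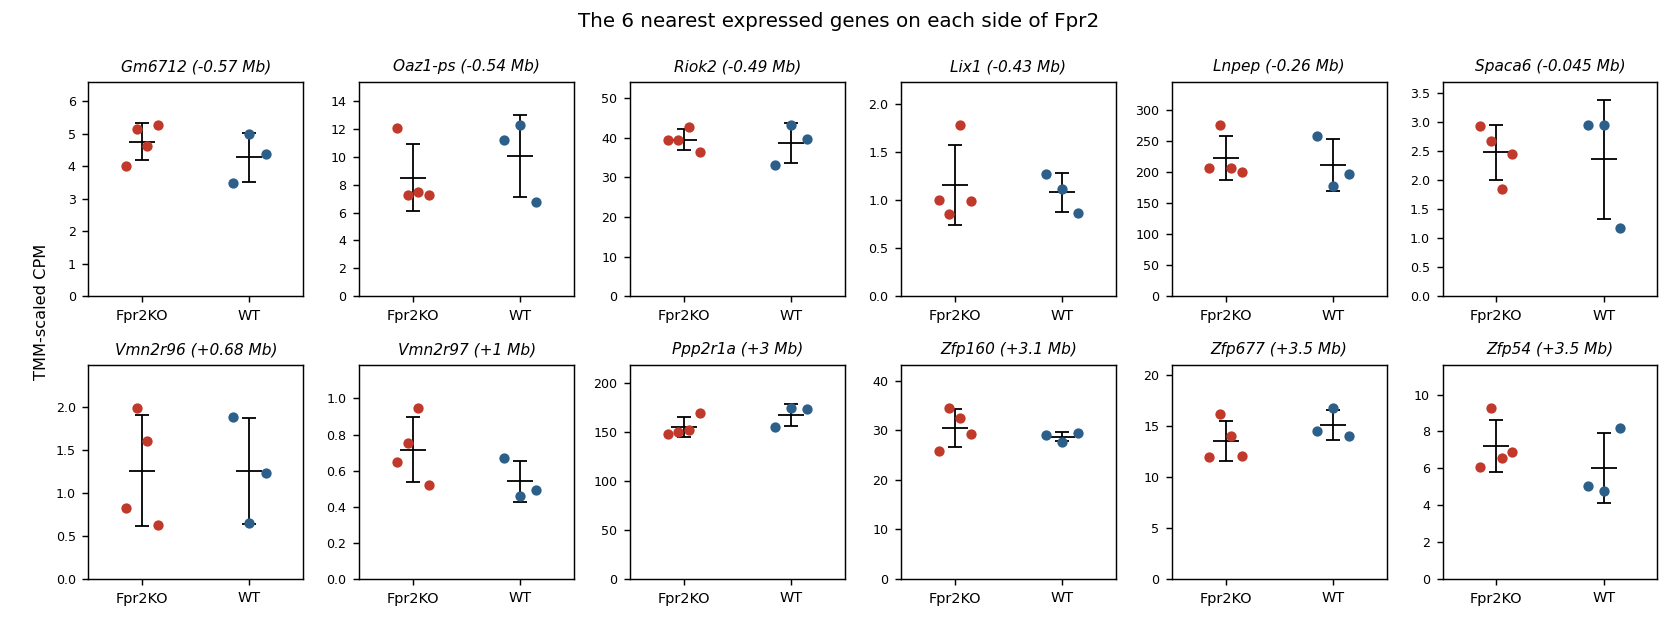
Level of the genes nearest to Fpr2 on each side, apart from those left out by name, in TMM-scaled CPM. Each Fpr2KO library is on the left of its panel and each WT library on the right, with the mean and SD. The groups overlap in every panel, from Vmn2r97 under 1 CPM to Lnpep between 177 and 275 CPM.

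The genes were also ordered by distance from Fpr2. Within 1 Mb on either side, none of 11 genes had an unadjusted p under 0.05, and 9 of the 11 had positive log2 fold changes with a median of 0.08 and a range from -0.24 to 0.21. From 1 to 2.5 Mb, 1 of 9 did, with a median of 0.05. From 2.5 to 5 Mb, 2 of 47 did, with a median of 0.09 and 34 positive values. From 5 to 10 Mb, 8 of 151 did, with a median of -0.03 and 63 positive values. Over all genes, 4.98% had an unadjusted p under 0.05 and 48.6% had positive values. Most of the zinc finger genes described below lie between 2.5 and 5 Mb, so their values are counted in that band too. The centromere side had a median of 0.05 over 53 genes and the telomere side -0.01 over 165. Without Fpr2KO replicates 1 and 2, the libraries with high pancreatic acinar markers, the median within 1 Mb was -0.041.

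**Figure D3:**
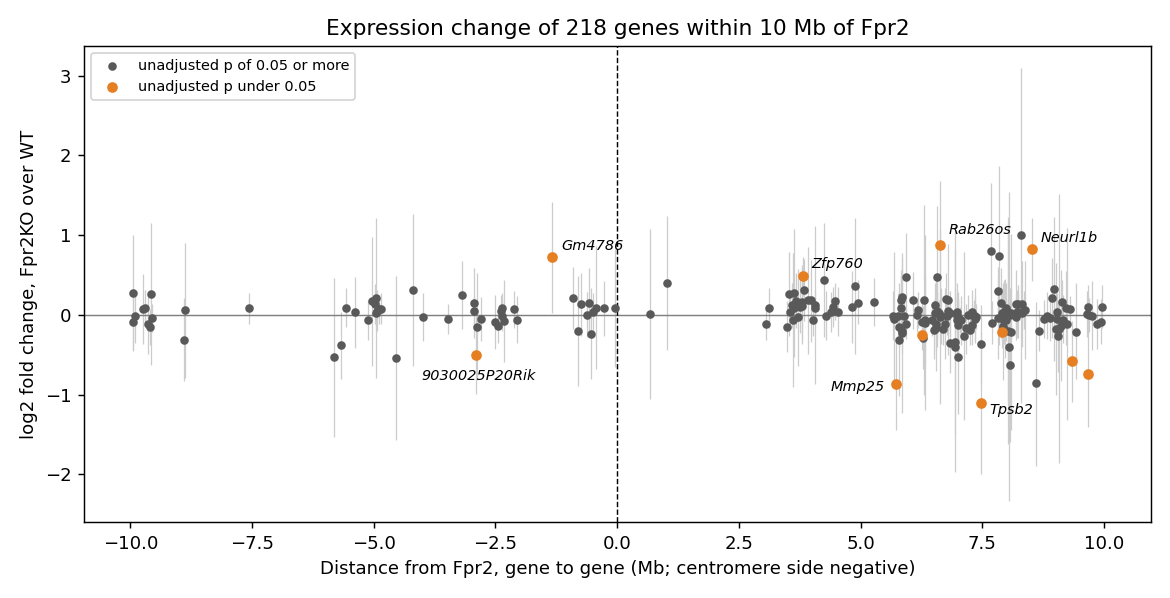
Log2 fold change (Fpr2KO over WT, vertical axis) of each of the 218 genes against its distance from Fpr2 in Mb (horizontal axis, centromere side negative), with 95% intervals as grey lines and the 11 genes with an unadjusted p under 0.05 in orange. The points lie around 0 on both sides and no cluster of orange points surrounds the dashed line at Fpr2.

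Zinc finger genes leaned to positive values, though none passed the genome-wide test. Many genes of this family encode KRAB-type DNA-binding repressors, which are known for silencing transposable elements. Of 26 Zfp genes, 19 had positive and 7 negative log2 fold changes, with a median of 0.10 and a range from -0.20 to 0.49, beside 50.9% positive in the region and 48.6% over all genes. A single one, Zfp760, had an unadjusted p under 0.05. Zfp760 (21707741 to 21725636, plus strand, 3.81 Mb from Fpr2) had 21.4, 21.2, 21.9 and 18.5 CPM in Fpr2KO, against 15.9, 14.4 and 14.2 CPM in WT. All 4 Fpr2KO libraries lay above all 3 WT libraries (log2 fold change 0.49, SE 0.11, 95% interval 0.24 to 0.73, unadjusted p = 0.00137, edgeR adjusted p = 0.479). Without Fpr2KO replicates 1 and 2 the median of the 26 genes was 0.031, and it ran from 0.045 to 0.136 as each library was left out.

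Among the most abundant Zfp genes, Zfp598, Zfp943, Zfp160 and Zfp945 had log2 fold changes of -0.02, 0.09, 0.09 and 0.15, with standard errors between 0.10 and 0.12. Zfp598, whose human counterpart is a ubiquitin ligase that senses collided ribosomes, had 40.4 ± 4.17 CPM in Fpr2KO and 41.0 ± 2.83 CPM in WT. Zfp943 had 36.8 ± 1.52 CPM in Fpr2KO and 34.5 ± 3.92 CPM in WT. Zfp945 had 28.7 ± 3.99 CPM in Fpr2KO and 25.8 ± 1.78 CPM in WT. These values are means ± SD over 4 and 3 libraries, and the groups overlapped for all 3 genes.

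Among growth, mTOR and kinase signalling genes, 24 of the 32 listed were measured, 10 with positive and 14 with negative log2 fold changes and a median of -0.06. Neurl1b, a ubiquitin ligase that acts on Notch ligands, had the smallest p of the 218 genes. Neurl1b (ENSMUSG00000034413, 26414829 to 26446349, plus strand) lay 8.52 Mb from Fpr2, near the far end of the interval. It had 8.71, 7.78, 6.28 and 7.87 CPM in Fpr2KO, against 3.82, 4.19 and 4.99 CPM in WT. All 4 Fpr2KO libraries lay above all 3 WT libraries, with means of 7.66 ± 1.01 CPM in Fpr2KO and 4.33 ± 0.595 CPM in WT (log2 fold change 0.82, SE 0.18, 95% interval 0.42 to 1.22). The edgeR p was 0.00107 before and 0.479 after adjustment over all genes, and DESeq2 gave an adjusted p of 0.0392. Over all alternatives the log2 fold change stayed between 0.71 and 0.93 and the adjusted p between 0.0392 and 1.0. Dll1, a Notch ligand of splenic stroma, had a log2 fold change of -0.09. The mTOR pathway genes Pdpk1, Mlst8 and Tsc2 had log2 fold changes of 0.06, 0.03 and -0.18, and none had an unadjusted p under 0.05. Pdpk1, which encodes the kinase that activates AKT, had 81.4 ± 3.36 CPM in Fpr2KO and 78.2 ± 10.1 CPM in WT.

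Immune and inflammatory genes of the region were split evenly, 9 positive and 9 negative among 18 of 30 listed, with a median of -0.03. Of the 18, 2 had an unadjusted p under 0.05, beside 4.98% of all genes, too few to compare with that share. Mmp25, the membrane-anchored metalloproteinase leukolysin of neutrophils, had 5.89, 3.59, 4.32 and 5.47 CPM in Fpr2KO, against 11.1, 9.70 and 5.66 CPM in WT. Replicate 3 was the lowest WT library and lay within the Fpr2KO range, so the groups overlapped (log2 fold change -0.87, SE 0.26, unadjusted p = 0.00698, edgeR adjusted p = 0.753). Beside it, 10 of 10 neutrophil markers had negative log2 fold changes, between -0.65 and -1.22, and their summed CPM did not overlap between the groups. None of the 10 passed the test (edgeR adjusted p between 0.479 and 1.0), and Camp, Ngp, Ltf, Cxcr2 and Elane overlapped between the groups. Their part in the Mmp25 value was not tested. In whole spleen, fewer cells of a type and less RNA per cell cannot be told apart. Tpsb2, a tryptase of mast cell granules, had 0.648, 0.966, 0.592 and 0.313 CPM in Fpr2KO, against 1.34, 1.77 and 0.985 CPM in WT. All Fpr2KO libraries lay below all WT libraries at this low level (log2 fold change -1.11, SE 0.40, unadjusted p = 0.0202, edgeR adjusted p = 0.892). Prss34, a protease of basophils and mast cells that was left out by name, lies in the same protease cluster, at 5.06, 3.33, 2.07 and 2.92 CPM in Fpr2KO and 3.42, 9.96 and 11.3 CPM in WT. Bak1, a mitochondrial effector of apoptosis, had 74.0 ± 3.63 CPM in Fpr2KO and 66.3 ± 13.6 CPM in WT. Ccr6, a chemokine receptor of B cells, had a log2 fold change of -0.12, and Sod2, the mitochondrial superoxide dismutase, one of 0.07.

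Lysosome, vesicle and membrane traffic genes had more negative than positive values, 15 against 6 of 21, with a median of -0.04. Over all genes, 48.6% of values were positive. Atp6v0c, the proteolipid subunit of the proton pump that acidifies lysosomes, had 93.5, 79.4, 94.5 and 90.6 CPM in Fpr2KO, against 105, 108 and 106 CPM in WT. The groups did not overlap, and their SD was 6.96 CPM in Fpr2KO and 1.74 CPM in WT (log2 fold change -0.25, SE 0.08, unadjusted p = 0.0145, edgeR adjusted p = 0.872). Clcn7, a chloride-proton exchanger of the lysosome, had 35.1, 34.7, 34.4 and 34.1 CPM in Fpr2KO, against 42.2, 39.8 and 36.0 CPM in WT, again without overlap (log2 fold change -0.19, SE 0.09). Another subunit of the same pump, Atp6v0e, had 122, 124, 132 and 136 CPM in Fpr2KO, against 110, 144 and 145 CPM in WT, and its groups overlapped. Clcn7 was chosen because its groups do not overlap, after its values were seen.

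Transcription, chromatin and RNA processing genes, 25 of 30 measured, had log2 fold changes between -0.20 and 0.30 with a median of -0.01, and none had an unadjusted p under 0.05. Qk, an RNA-binding regulator of splicing, had 148 ± 10.9 CPM in Fpr2KO and 140 ± 7.60 CPM in WT. Crebrf had 118 ± 14.4 CPM in Fpr2KO and 119 ± 19.4 CPM in WT. Nkx2-5, a homeobox gene with a role in spleen development, had a log2 fold change of 0.21. The cell cycle and DNA repair genes, 13 of 18 measured, ran from -0.14 to 0.16 with a median of -0.01, and none had an unadjusted p under 0.05. Chd1, a chromatin remodeller, had 88.3 ± 3.58 CPM in Fpr2KO and 84.2 ± 12.3 CPM in WT. Fam120b had 47.7 ± 4.49 CPM in Fpr2KO and 52.7 ± 3.62 CPM in WT. The 24 mitochondrial and metabolic genes divided into 12 positive and 12 negative values with a median of 0.01, which was -0.075 when WT replicate 1 was left out and 0.066 when WT replicate 2 was. Msrb1 had 123, 78.3, 117 and 99.7 CPM in Fpr2KO, against 144, 148 and 112 CPM in WT. Its log2 fold change was -0.36 (SE 0.16, unadjusted p = 0.0514), and replicates 1 and 3 of Fpr2KO lay above the lowest WT library.

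The other genes with an unadjusted p under 0.05 were mostly scarce or shared sequence with other genes. Fam173a, whose human counterpart is a lysine methyltransferase of mitochondria, had 33.5, 30.6, 32.9 and 31.2 CPM in Fpr2KO, against 34.3, 40.7 and 36.5 CPM in WT (log2 fold change -0.21, unadjusted p = 0.043). Its groups did not overlap, but the closest libraries of each differed by less than the SD of either group. Rab26os, antisense to Rab26, had 2.24, 1.34, 1.07 and 1.09 CPM in Fpr2KO, against 0.737, 0.721 and 0.862 CPM in WT (log2 fold change 0.88, unadjusted p = 0.0343). Without Fpr2KO replicates 1 and 2 its log2 fold change was 0.48. The lincRNA AC141882.2 had 1.82, 3.17, 2.90 and 2.55 CPM in Fpr2KO, against 4.22, 3.87 and 3.69 CPM in WT (log2 fold change -0.58, unadjusted p = 0.0274). C130040N14Rik, whose exons overlap those of AI413582 on the other strand by 524 bases, averaged 0.742 ± 0.139 CPM in Fpr2KO and 1.24 ± 0.172 CPM in WT. The strand setting of the counting was not given, so reads from the shared bases cannot be told apart. Gm4786, a processed pseudogene with most of its 50-base stretches present in other genes, averaged 1.31 ± 0.216 CPM in Fpr2KO and 0.793 ± 0.198 CPM in WT. For 9030025P20Rik, with 68.1% shared, the means were 2.00 ± 0.250 CPM in Fpr2KO and 2.83 ± 0.375 CPM in WT. For these 4 the groups did not overlap, and the adjusted p lay between 0.945 and 0.988.

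**Figure D4:**
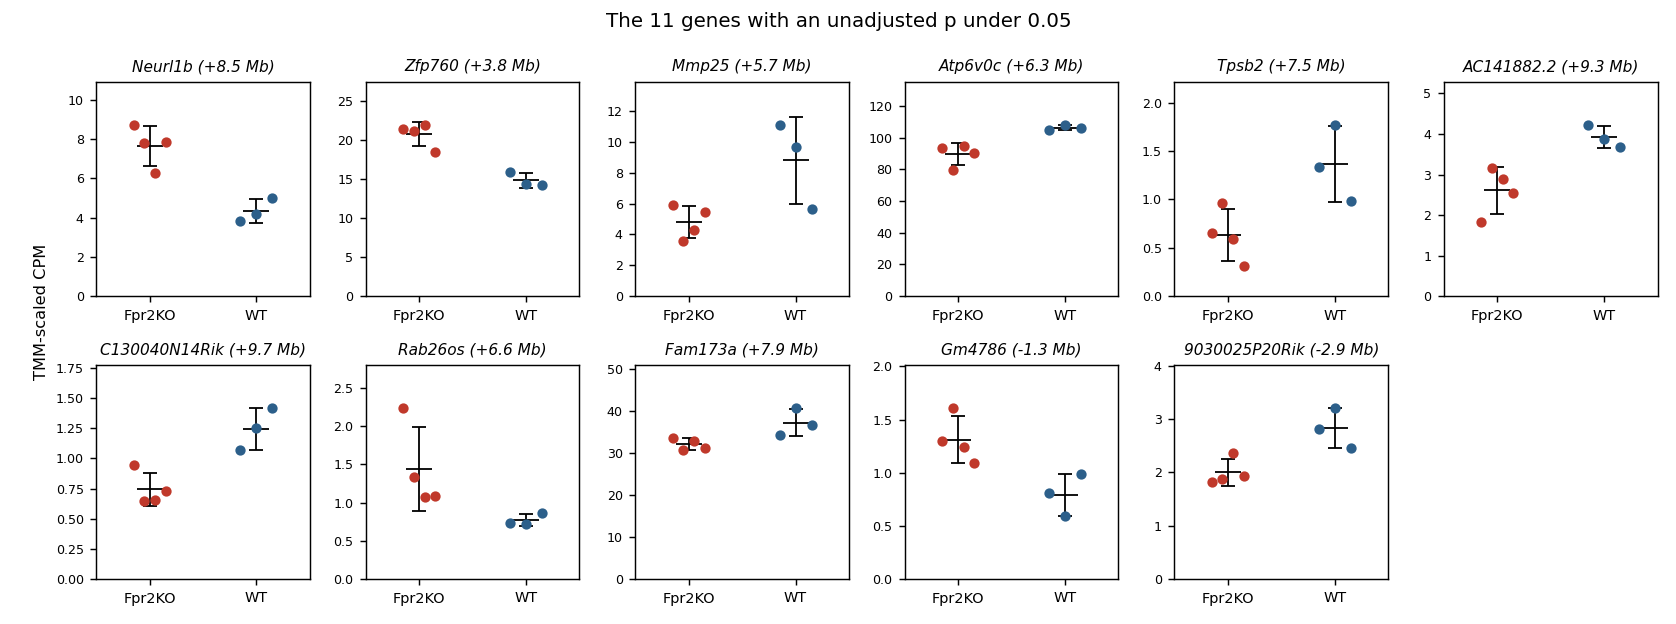
TMM-scaled CPM in each Fpr2KO library (left, red) and each WT library (right, blue) for the 11 genes with an unadjusted p under 0.05, with mean and SD; titles give the distance from Fpr2. Fpr2KO and WT libraries are apart in every panel but Mmp25, where the lowest WT library, at 5.66 CPM, lies below the highest Fpr2KO library, at 5.89 CPM. The genes were picked by their p in these same libraries, so the separation largely follows from that choice. Over all genes tested, the groups did not overlap for 5.91%.

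A few genes varied widely between libraries of the same genotype. They were singled out after their values were seen, as the genes averaging 5 CPM or more whose levels spread most within groups. Over the 159 genes at that level the median within-group SD was 0.16 on the log2 scale, and 7 exceeded 0.5. Fahd1 (0.68) and Ccnf (0.62) were among them and spread slightly more than Ift140 (0.61). Hagh, which encodes glyoxalase II, had 137, 35.8, 65.9 and 70.3 CPM in Fpr2KO, against 95.8, 169 and 43.9 CPM in WT. Pigq, of the first step of GPI anchor synthesis, had 238, 64.3, 117 and 128 CPM in Fpr2KO, against 179, 220 and 71.3 CPM in WT. Ift140, an intraflagellar transport protein, had 170, 67.7, 99.1 and 97.8 CPM in Fpr2KO, against 143, 178 and 71.1 CPM in WT. The same libraries were low in all 3 genes, replicate 2 of Fpr2KO and replicate 3 of WT. The summed CPM of 7 erythroid markers was 49600, 9960, 18700 and 24600 in Fpr2KO, against 41500, 90300 and 14800 in WT, lowest in those same libraries. With that sum as a covariate, added after seeing the data, the log2 fold change of Hagh was 0.26 (SE 0.09, edgeR adjusted p = 0.546), against -0.41 (SE 0.62) without it. For Pigq it was 0.37 (SE 0.13, edgeR adjusted p = 0.538), against -0.20 (SE 0.57) without it. For Ift140 it was 0.18 (SE 0.11, edgeR adjusted p = 0.782), against -0.27 (SE 0.43) without it. For Ccnf it was 0.32 (SE 0.14), against -0.1 (SE 0.45) without it. For Fahd1 it was 0.09 (SE 0.19), against -0.34 (SE 0.48) without it. The part of erythroid RNA in these values was not tested. Dusp1, an immediate early phosphatase of MAP kinases, had 29.7, 24.4, 53.4 and 30.9 CPM in Fpr2KO, against 88.1, 68.1 and 32.7 CPM in WT. Its groups overlapped at replicate 3 of each (log2 fold change -0.86, SE 0.42, unadjusted p = 0.0854).

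**Figure D5:**
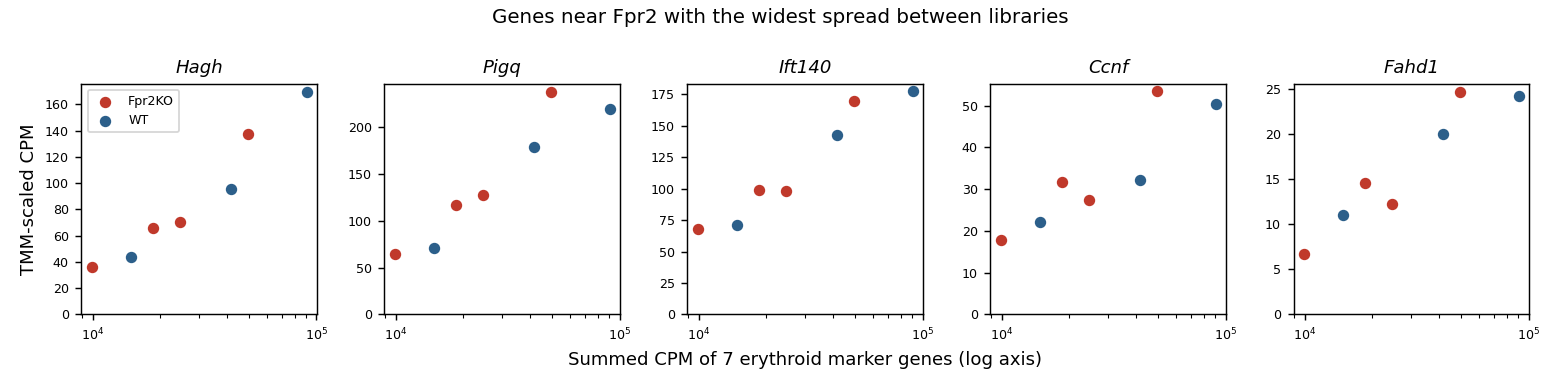
TMM-scaled CPM of Hagh, Pigq, Ift140, Ccnf and Fahd1 (vertical axes) against the summed CPM of 7 erythroid marker genes (horizontal axis, log scale) in the 4 Fpr2KO libraries (red) and the 3 WT libraries (blue). Each point is a library, and the libraries with the lowest erythroid sums, 9960 in Fpr2KO and 14800 in WT, have the lowest level of their group in every panel.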

How the data were processed

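Polyadenylated RNA of whole spleen was measured in 4 Fpr2KO and 3 WT samples. The authors deposited raw read counts per Ensembl gene in 1 table. Quality control used FastQC 0.10.1 and counting used HTSeq 0.10.0, on GRCm38 (mm10), per the submitters' processing notes. The aligner, annotation release and strand setting are not given in the sources used here. GENCODE M21 matched 52081 of 55414 gene IDs, with 99.82% of the counts. Genes were tested with edgeR 4.0.16 (R 4.3.3; filterByExpr, TMM scaling, robust quasi-likelihood F test, 16089 genes) over all 7 samples, with Benjamini-Hochberg adjustment and calls under 0.05. The 3-count floor was 0.156 to 0.201 CPM, covering counting error only.

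The genes, lists and distance bands were chosen with earlier results of these data known. Named genes are the 6 nearest on each side, those with an unadjusted p under 0.05, those called in any alternative, the 5 most abundant, the 4 most abundant of each group and those at the read minimum. Other genes, among them Dll1, Mlst8, Tsc2, Ccr6, Sod2, Nkx2-5, Elob, Gm8186, Gm5165 and BC002059, were chosen after their values were seen. A gene that the rule takes is not reported here. Sequence sharing was counted as 50-base stretches of a gene's transcripts found in another gene's. Promoter sequences were available for 162 of the 218 genes. The edgeR fit was also tested on data simulated from its own means and trended dispersions. The simulated data held 50 genes changed at each of 1.5-, 2-, 3- and 4-fold. There it called 20% of genes changed 1.5-fold and 62% of those changed 2-fold. It called 145 genes there, 10 of them falsely, against 6 in the real data. With so many changed genes the adjusted p is easier to pass, so these shares may be too high for the real data. Alternatives were RLE and upper-quartile scaling, library sizes that leave out haemoglobin, immunoglobulin and mitochondrial genes, DESeq2 1.42.0, limma-voom 3.58.1, other low count filters, a replicate block, samples left out, an interval of 5 Mb and a minimum of 200 reads. An erythroid covariate was added after seeing the data. Whether each sample is a separate animal is not stated in the labels, and the p-values may therefore reflect technical spread. Every pair of libraries differed by more than sampling noise.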

Additional observations from a re-analysis of the deposited data

Results flagged for a closer look

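In 5 of the 44 named genes, 1 Fpr2KO library stood apart from the other 3 by Dixon's criterion at 95%; chance alone gives about 1 in 20. Lnpep had 275 CPM in replicate 2. Crebrf had 140 CPM in the same library. Qk had 164 CPM in replicate 1, and Oaz1-ps had 12.1 CPM there. Lix1 had 1.78 CPM in replicate 3. The WT group, with 3 libraries, was not examined in this way.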

How the results depend on the processing

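None of the 218 genes was called in any edgeR or limma-voom alternative, and Neurl1b was the only one called by DESeq2 (1 gene; log2 fold change 0.83, adjusted p = 0.0392). All genes called numbered 6 in the report, 58 with DESeq2, 21 with no low count filter, 12 with the erythroid covariate and 5 to 15 as each library was left out, highest without WT replicate 3. Region genes at an unadjusted p under 0.05 numbered 11 (5.05%, against 4.98% of all genes). There were 7 with DESeq2 (3.21%, against 2.84% of all genes) and 15 with the erythroid covariate (6.88%, against 7.32% of all genes). In the fit of the report there were 7 of 182 at 200 or more reads and 3 of 67 within 5 Mb, beside the same 4.98% of all genes. As each library was left out there were 6 to 17. The lowest was without WT replicate 2 (2.75%, against 4.29% of all genes) and the highest without WT replicate 3 (7.8%, against 6.34%). The median log2 fold change of the region genes, 0.003, was 0.079 within 5 Mb and ran from -0.02 to 0.041 with a library left out.

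Medians near 0 changed sign easily. Within 1 Mb the median was -0.041 without Fpr2KO replicates 1 and 2, and -0.006 to 0.124 with a library left out; from 5 to 10 Mb it was -0.05 to 0.022. With a library left out, the group medians ran from -0.05 to 0.006 for growth and kinase signalling, -0.094 to 0.018 for immune, -0.012 to 0.016 for transcription, -0.03 to 0.065 for cell cycle, -0.075 to 0.066 for mitochondrial and -0.095 to -0.026 for lysosome genes. The growth median was -0.011 with limma-voom, -0.015 with the covariate and 0.0 without both Fpr2KO replicates 1 and 2. The transcription median was 0.01 with upper-quartile scaling and with the reduced library sizes, and 0.014 without both replicates. The cell cycle median was 0.082 with the covariate. Of the 44 named genes, 22 changed sign in at least 1 of 17 alternatives; the cause was not tested.

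Samples with the same replicate number did not deviate together (correlations 0.0778, -0.434 and -0.0733). Pairs with different numbers ran from -0.44 to 0.436, so these values cannot decide whether the numbers pair the samples. With a replicate block, 2 genes were called over the table and 5 region genes (2.29%, against 2.78% of all genes) had an unadjusted p under 0.05. The immune and transcription medians were 0.022 and 0.025. Fpr2KO replicate 4 has no WT partner and adds nothing to the blocked contrast. Genes under 1 CPM are limited by depth.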

Other observations

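Several genes of the interval that the count minimum or their names kept out were also measured. Fpr1, the neighbouring formyl peptide receptor, had 33.6, 28.7, 31.6 and 36.0 CPM in Fpr2KO, against 58.9, 31.6 and 32.4 CPM in WT; the groups overlapped and WT replicate 1 was the highest. Fpr3 had 2, 4, 0 and 1 reads in Fpr2KO and none in WT, and 48 of its 1268 exon bases are also exon of Fpr2 on the same strand. The ribosomal protein gene Rps2 had 1450, 1260, 1400 and 1340 CPM in Fpr2KO, against 1200, 1680 and 1420 CPM in WT. Rps10 had 239, 251, 269 and 237 CPM in Fpr2KO, against 202, 289 and 259 CPM in WT.

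Pdia2, a protein disulfide isomerase known from the pancreas, had the highest log2 fold change of the 218 genes, 1.00 with a standard error of 0.88. It had 6.00, 1.45, 2.07 and 1.15 CPM in Fpr2KO, against 0.804, 2.88 and 0.308 CPM in WT, and the groups overlapped. It was singled out after its values were seen. Of the Fpr2KO libraries, replicates 1 and 2 had the high pancreatic acinar sums, 943 and 541 CPM, while Pdia2 was high in replicate 1 only. The part of acinar RNA in this value was not tested.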
